A study of Mus musculus with 4 samples.

Results

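The endothelial and lymphatic vessel genes examined here are a list of 45 genes of blood and lymphatic endothelium, and their mRNA levels were followed in mouse lung tumors raised with urethane, and in the non-tumor lung, with and without the transcription factor Nrf2 (Nfe2l2). Members were found by gene symbol among the non-control probes of a whole-mouse-genome array and kept where the scanner software called the spot well above background on at least 1 array. A named probe was found for 43 of the 45 genes. Roco2, whose symbol in the list may be misspelt, and Tal1 matched none, and many probes of the array carry no gene name here. Of the 43, 41 passed, out of 20553 genes that passed on the whole array. All 41 were well above background on all 4 arrays, so none entered through a single group. The lowest spots that passed among them were those of Erg, at 30.4 intensity units in Nrf2+/+ tumor, and Clec14a, at 55.0 units there. The members that did not pass, the lymphatic regulator Prox1 and the leukocyte adhesion receptor Sele, had at most 11.2 and 6.58 units on any array by any of their probes.

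Tumors and non-tumor lung were taken from female ICR mice, aged 6 months, that were either Nrf2+/+ or Nrf2-/-, which makes 4 groups. Every animal, the source of the non-tumor lung included, had received the carcinogen urethane at 1 g/kg by intraperitoneal injection 16 weeks earlier, so no group is untreated lung. Tumors of 1.0 to 1.5 mm at the lung surface were cut out and freed of surrounding tissue under a stereo-microscope. RNA of 8 mice was pooled for each group and hybridised to 1 array, so there are no replicates, every difference below describes a pair of pools, and the number of arrays limits the precision. Whether both tissues were taken from the same animals is not given in the sources used here. Nor is the region of Nfe2l2 that the mutant allele lacks. The Nfe2l2 probe was well above background on both Nrf2+/+ arrays and on neither Nrf2-/- array, which puts it at least 376-fold lower without Nrf2 in the non-tumor lung, and in the tumors at least 268-fold lower. These are lower bounds, set against the faintest probe well above background on the dim array. The endothelial markers Pecam1, Tek and Cdh5 were well above background in all 4 pools.

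Endothelial cells line all vessels and keep their identity through receptors for vascular endothelial growth factors and angiopoietins, through Ets and Sox transcription factors and through junction proteins that seal one cell to the next. The lung holds a dense capillary bed in which general capillary cells, marked by the apelin receptor Aplnr, lie beside aerocytes, the gas-exchange capillary cells marked by Car4, Ednrb and Apln. Arteries carry connexins, Dll4, Efnb2 and Sox17, and lymphatic vessels carry Flt4, Lyve1 and Prox1.

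The tumor arrays were dimmer as a whole: the 75th percentile of all spots was 760 intensity units for Nrf2+/+ and 742 for Nrf2-/- non-tumor lung, but 555 for Nrf2+/+ and 584 for Nrf2-/- tumor. Signals are therefore printed as the scanner gave them, in intensity units, and each difference is a difference of log2 signal after that percentile was subtracted on each array, so that -1 is a 2-fold lower level. The scanner software's own error was 0.20 for the tumor difference of most members and at most 0.33, with larger errors for differences between the faint tumor signals of Erg (0.41). It covers the spot, not the animals or the labelling. The Nrf2+/+ non-tumor array lay alone on slide 1 and the other 3 arrays on slide 2. The Nrf2+/+ tumor difference and the genotype difference in non-tumor lung both use that array and cross slides, so a slide effect cannot be told apart from them. The Nrf2-/- tumor difference and the genotype difference in tumors lie within slide 2.

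Vessel genes were lower in tumors of both genotypes, and the median gap was wider in the Nrf2+/+ pools. In Nrf2+/+ mice 25 of the 41 members were at least 2-fold lower in tumor, against 15.2% of all genes, and 0 were at least 2-fold higher, against 8.06%. The median member difference was -1.16, and the median over all genes was -0.03. In Nrf2-/- mice 11 members were at least 2-fold lower, against 9.06% of all genes, and 0 were at least 2-fold higher, against 5.36%, with a median of -0.83 beside -0.03 for all genes. All 11 were also past 2-fold in Nrf2+/+ mice. Another 14 passed in Nrf2+/+ mice and missed the mark in Nrf2-/- mice, and 16 passed in neither. Of all genes, too, more passed in Nrf2+/+ (15.2%) than in Nrf2-/- mice (9.06%). Whether the genotypes differ in the members' counts could not be tested. Both tumor pools lay below both non-tumor pools for 37 of the 41 members and for 33.3% of all genes. Where a member has a second probe well above background on all arrays, that probe can change its side of the mark: it passed 2-fold lower in both genotypes for Calcrl, Apln and Vwf, in Nrf2+/+ mice for Vcam1 and in Nrf2-/- mice for Lyve1 and Sox17, all of which missed it there with the probe counted, and it missed in Nrf2+/+ mice for Gja5. Some of these second probes were far dimmer than the probe counted. In Nrf2+/+ non-tumor lung Gja5 read 97.4 against 13874 units, Calcrl 331 against 25926 and Vcam1 410 against 3302. Second probes of Apln (4176 against 4653) and Sox17 (3238 against 2785) were of similar brightness. In tissue RNA, fewer endothelial cells in a tumor and less of the vessel gene mRNAs in each cell cannot be told apart.

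**Figure D1:**
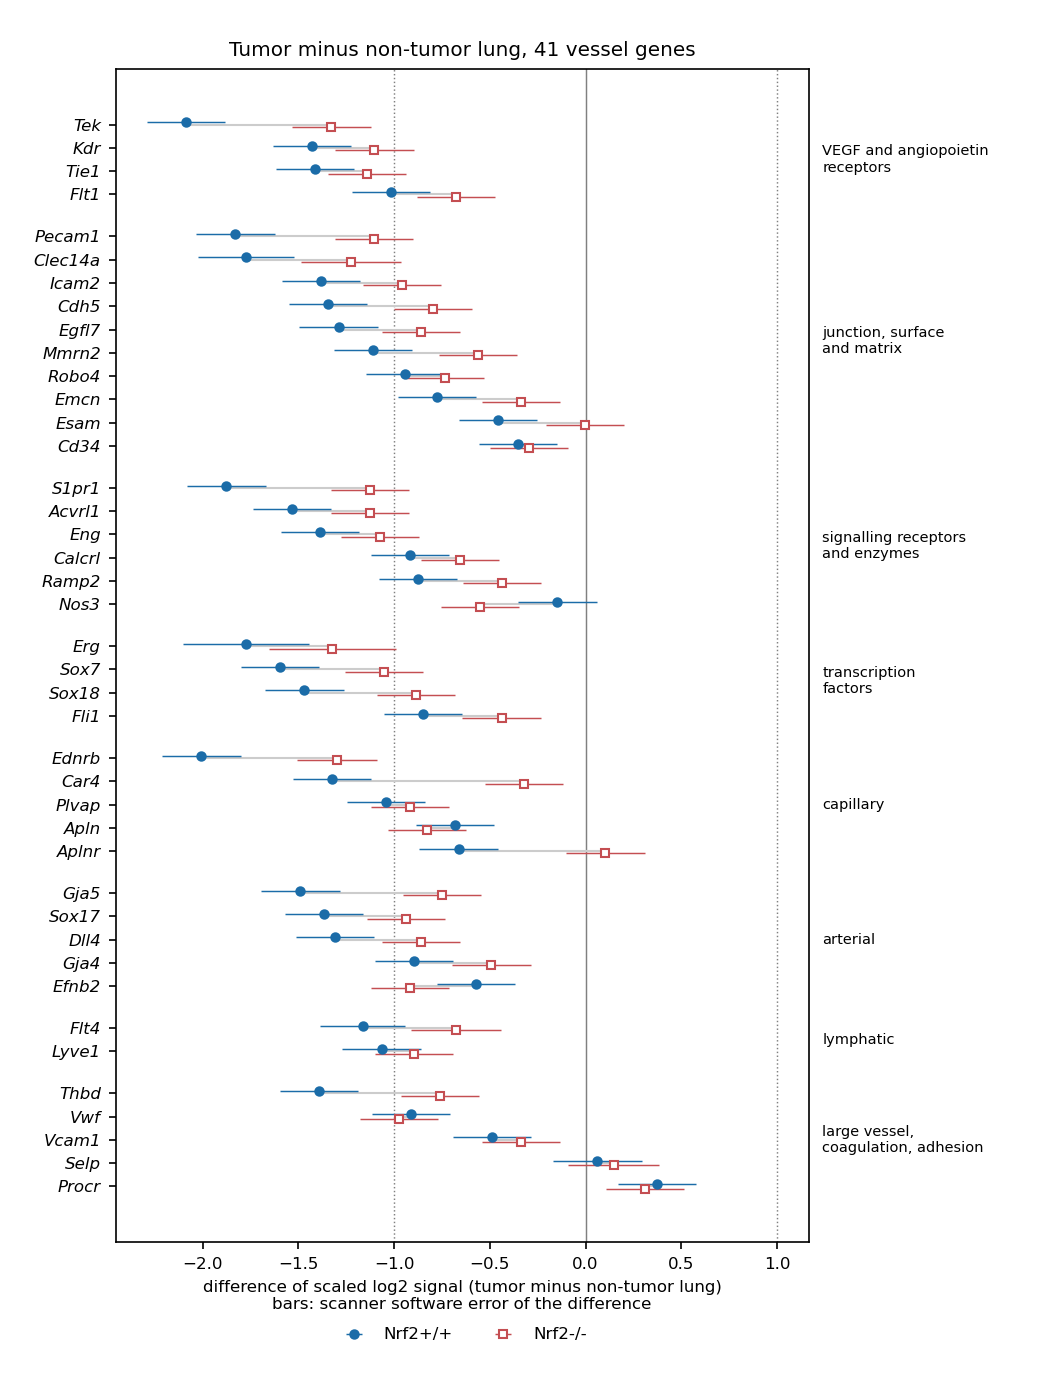
Difference in scaled log2 signal between tumor and non-tumor lung for the 41 measured vessel genes, grouped by role, in Nrf2+/+ (filled circles) and Nrf2-/- mice (open squares); bars give the scanner software's error of the difference, and dotted lines mark 2-fold. Of the 41 genes, 39 lie left of 0 in Nrf2+/+ and 38 in Nrf2-/- mice, beside 10687 and 10766 of all 20553 genes. Most open squares lie to the right of their filled circle.

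The receptors for vascular endothelial growth factors and angiopoietins stood among the lowest. Tek, the angiopoietin receptor Tie2, read 4047 and 2558 intensity units in Nrf2+/+ and Nrf2-/- non-tumor lung and 696 and 803 units in Nrf2+/+ and Nrf2-/- tumor. Both tumor pools lay far below both non-tumor pools, by -2.09 in Nrf2+/+ mice, the lowest value of any member, and by -1.33 in Nrf2-/- mice. Kdr, the main signalling receptor for Vegfa, read 13440 and 11688 units in the non-tumor pools and 3653 and 4285 units in the tumor pools, in the same order of genotypes. Its tumor differences of -1.43 and -1.10 correspond to 2.69-fold and 2.15-fold lower levels. Tie1, the orphan partner of Tek, differed by -1.41 and -1.14. Flt1, which binds Vegfa but signals weakly, differed by -1.01 in Nrf2+/+ and -0.67 in Nrf2-/- mice, so that 4 of 4 receptors passed the 2-fold mark in Nrf2+/+ mice and 3 of 4 in Nrf2-/- mice.

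Sequence just upstream of the transcription start was taken for 22 of the 41 members from a RefSeq promoter table (build GRCm38.p6), and is printed for Tek, the lowest member, and Kdr, the main Vegfa receptor. The letters GGAA, the core bound by Ets factors such as Erg and Fli1, were searched on both strands (TTCC on the other) and are in capitals. Each stretch is the 250 bases before the start, 5′ to 3′ along the gene.

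Tek, chr4:94739039-94739288, + strand: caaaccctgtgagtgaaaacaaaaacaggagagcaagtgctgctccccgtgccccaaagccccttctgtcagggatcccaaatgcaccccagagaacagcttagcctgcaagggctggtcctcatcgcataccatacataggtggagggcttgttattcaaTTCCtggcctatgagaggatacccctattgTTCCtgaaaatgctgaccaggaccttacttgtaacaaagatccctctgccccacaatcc

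Kdr, chr5:75978456-75978705, - strand: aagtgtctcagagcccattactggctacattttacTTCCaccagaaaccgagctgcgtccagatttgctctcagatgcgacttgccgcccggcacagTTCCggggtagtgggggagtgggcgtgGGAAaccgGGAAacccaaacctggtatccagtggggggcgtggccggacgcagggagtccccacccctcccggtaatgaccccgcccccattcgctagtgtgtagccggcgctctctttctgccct

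The Tek stretch holds 2 matches and the Kdr stretch 4. GGAA was found in 21 of the 22 member promoters (95.5%) and in 93.0% of the 11366 promoters of measured genes, so this core alone hardly sets the members apart. The Sox core ACAAT was in 31.8% of member promoters and 19.3% of those of measured genes. Among all 27025 promoters searched its share was 28.3%, nearer that of the members. The Klf core CACCC was in 72.7% of member promoters and 57.1% of those of measured genes. TGANNNNGC, the core of the antioxidant response element that Nrf2 binds, was in 45.5% of member promoters and 36.3% of those of measured genes. Each was searched on both strands within the 250 bases, and matches of different motifs may overlap. These are matches of letters, described without a test.

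Junction, surface and matrix proteins of all endothelium were lower in tumor without exception in Nrf2+/+ mice, 10 of 10 below 0 and 6 past 2-fold, with a median of -1.20. In Nrf2-/- mice the median was -0.77 and 2 passed 2-fold, Pecam1 and Clec14a. Pecam1 (CD31), the platelet and endothelial adhesion molecule at cell contacts, read 3759 and 2466 units in Nrf2+/+ and Nrf2-/- non-tumor lung and 773 and 904 units in the tumors, differences of -1.83 and -1.10. Cdh5, the VE-cadherin of adherens junctions, read 10611 and 8459 units in non-tumor lung and 3053 and 3835 units in tumors. Its differences were -1.34 and -0.80. A second Cdh5 probe gave -2.19 and -0.93, so the size in Nrf2+/+ mice depends on the probe while the direction does not. Clec14a, a vessel lectin, was lower by 3.42-fold and 2.33-fold, and its matrix ligand Mmrn2 by 2.16-fold and 1.48-fold. The leukocyte ligand Icam2 differed by -1.38 and -0.96, the secreted factor Egfl7 by -1.29 and -0.86, and the guidance receptor Robo4 by -0.94 and -0.73.

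Some surface genes of the same group departed little. Esam, a tight junction adhesion molecule, read 1542 and 1190 units in non-tumor lung and 820 and 934 units in tumors, which after scaling was -0.46 in Nrf2+/+ mice and 0.00 in Nrf2-/- mice, the latter on the other side of 0 with median scaling and with normexp. Cd34, the sialomucin shared with fibroblasts and blood progenitors, differed by -0.35 and -0.29. Emcn, the sialomucin of capillaries and veins, differed by -0.78 and -0.34. Esam, Cd34 and Emcn all lay above the core endothelial members, a set of 11 genes taken here as pan-endothelial that includes Esam and Emcn, whose median differences were -1.34 and -0.86.

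Among signalling receptors, S1pr1, which senses sphingosine 1-phosphate and holds capillary junctions closed, read 5846 and 3730 units in Nrf2+/+ and Nrf2-/- non-tumor lung and 1164 and 1348 units in the tumors. Its differences were -1.88 and -1.12. Acvrl1 (ALK1) and its co-receptor Eng (endoglin), which carry BMP signals in endothelium, were both past 2-fold in both genotypes: Acvrl1 by -1.53 and -1.12, and Eng by -1.39 and -1.08. For the adrenomedullin receptor pair, Calcrl differed by -0.92 and -0.65 and Ramp2 by -0.87 and -0.44, but a second Calcrl probe gave -1.62 and -1.19. Nos3, the endothelial nitric oxide synthase, was the member of this group closest to no difference in Nrf2+/+ mice: it read 866 and 1260 units in non-tumor lung and 572 and 676 units in tumors, which was -0.15 in Nrf2+/+ and -0.55 in Nrf2-/- mice. The Nos3 value in Nrf2+/+ mice turned above 0 when arrays were scaled on their median.

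The endothelial transcription factors had the lowest median of any role in Nrf2+/+ mice, -1.53. In Nrf2-/- mice their median was -0.97, above the -1.12 of the growth factor receptors. Sox7, a SoxF factor, read 3990 and 3205 units in non-tumor lung and 966 and 1218 units in tumors, differences of -1.59 and -1.05. Sox18, the SoxF factor also needed for lymphatic vessels, differed by -1.47 and -0.88. The Ets factor Erg was faint, at 142 and 120 units in non-tumor lung and 30.4 and 37.9 units in tumors, and differed by -1.77 and -1.32 with software errors of 0.33. Fli1, an Ets factor shared with blood cells, differed by -0.85 and -0.44.

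Capillary members did not move as one. Ednrb, the endothelin B receptor of aerocytes, read 1506 and 725 units in Nrf2+/+ and Nrf2-/- non-tumor lung and 274 and 232 units in the tumors. All of the other 3 pools lay below Nrf2+/+ non-tumor lung, and the tumor differences were -2.01 and -1.30. The stretch upstream of Ednrb, shown as the lowest capillary member, holds 2 GGAA matches.

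Ednrb, chr14:103843702-103843951, - strand: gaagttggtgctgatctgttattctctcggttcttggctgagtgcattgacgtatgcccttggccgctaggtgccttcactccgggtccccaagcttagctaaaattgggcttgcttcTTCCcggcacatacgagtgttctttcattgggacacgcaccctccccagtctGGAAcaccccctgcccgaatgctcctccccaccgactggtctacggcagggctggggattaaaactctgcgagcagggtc

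Car4, the carbonic anhydrase of aerocytes, read 5702 and 4087 units in non-tumor lung and 1665 and 2572 units in tumors. It was 2.50-fold lower in Nrf2+/+ tumor and 1.25-fold lower in Nrf2-/- tumor, differences of -1.32 and -0.32. Apln, the apelin ligand, read 4653 and 4317 units in non-tumor lung and 2117 and 1914 units in tumors, and its differences of -0.68 and -0.83 were nearly alike, as were those of a second probe (-1.07 and -1.02). Aplnr, its receptor on general capillary cells, read 1538 and 556 units in non-tumor lung and 710 and 470 units in tumors. After scaling both Nrf2+/+ pools lay above both Nrf2-/- pools, with Nrf2+/+ non-tumor lung highest, and the tumor difference was -0.66 in Nrf2+/+ mice and 0.10 in Nrf2-/- mice. The Nrf2-/- value lay on the other side of 0 under scaling on spike-in probes and under another background correction. Plvap, the diaphragm protein of fenestrated and some lung capillaries, differed by -1.04 and -0.91.

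Arterial members were lower in tumor in 5 of 5 cases in each genotype, with medians of -1.31 and -0.86, and 3 passed 2-fold in Nrf2+/+ mice and 0 in Nrf2-/- mice. Gja5 (connexin 40) read 13874 and 9036 units in non-tumor lung and 3612 and 4225 units in tumors, differences of -1.49 and -0.75. A second, far dimmer Gja5 probe gave -0.82 and -0.78. Sox17, the arterial SoxF factor, differed by -1.37 and -0.94 (-1.89 and -1.01 by a second probe), and the Notch ligand Dll4 by -1.31 and -0.86. Gja4 (connexin 37) differed by -0.90 and -0.49. Efnb2, the arterial ephrin, read 4655 and 3779 units in non-tumor lung and 2289 and 1575 units in tumors. Its Nrf2-/- tumor pool was the lowest of the 4, and its difference was larger in Nrf2-/- (-0.92) than in Nrf2+/+ mice (-0.57).

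The lymphatic members were both past 2-fold lower in Nrf2+/+ tumor and, by the probes counted, short of it in Nrf2-/- tumor. Flt4, the receptor for Vegfc and Vegfd, was faint, at 313 and 207 units in Nrf2+/+ and Nrf2-/- non-tumor lung and 102 units in each tumor pool, differences of -1.16 and -0.68. Lyve1, the hyaluronan receptor of lymphatic vessels and of some macrophages, read 5577 and 8504 units in non-tumor lung and 1947 and 3596 units in tumors. Nrf2-/- exceeded Nrf2+/+ in both tissues, and the tumor differences were -1.07 and -0.90. A second Lyve1 probe gave -1.64 and -1.12, past 2-fold in both genotypes, and its genotype difference was 0.12 in non-tumor lung but 0.63 in tumor. With Prox1 not above background, the lymphatic account rests on these few genes.

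Coagulation and leukocyte adhesion genes, many of them strongest in larger vessels, had the medians closest to 0, at -0.49 and -0.34. Thbd (thrombomodulin), an anticoagulant cofactor, differed by -1.39 and -0.76. Vwf, the platelet-tethering factor stored by endothelium and megakaryocytes, read 60716 and 88865 units in non-tumor lung and 23600 and 35626 units in tumors, differences of -0.91 and -0.97. A second Vwf probe gave -1.15 and -1.24. Vcam1, a leukocyte ligand, differed by -0.49 and -0.34, but by -1.37 and -0.50 on a second probe, and Selp (P-selectin) by 0.06 and 0.15, both below 0 with spike-in scaling. Procr, the endothelial protein C receptor, was the highest of all members: it read 2897 and 4054 units in non-tumor lung and 2737 and 3953 units in tumors, and since the tumor arrays were dimmer as a whole this was 0.37 and 0.31 after scaling. The spread among members thus ran from Tek, 4.25-fold lower, to Procr, above 0, in Nrf2+/+ mice. The stretch upstream of Procr is shown against those of the lowest members, and it holds 3 GGAA matches.

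Procr, chr2:155750967-155751216, + strand: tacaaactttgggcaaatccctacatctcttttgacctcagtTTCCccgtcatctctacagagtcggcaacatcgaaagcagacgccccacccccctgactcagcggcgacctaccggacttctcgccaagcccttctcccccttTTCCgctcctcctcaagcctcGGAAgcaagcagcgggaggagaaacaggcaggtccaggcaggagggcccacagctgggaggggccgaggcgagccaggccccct

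Members ranked similarly in both genotypes. Across the 41 genes the Nrf2+/+ and Nrf2-/- tumor differences, which share no array, had Pearson's r = 0.84 and Spearman's rho = 0.83, given as a description, since genes are not independent replicates. For 23 members the 4 pools stood in the same order, Nrf2+/+ non-tumor lung highest, then Nrf2-/- non-tumor lung, then Nrf2-/- tumor, and Nrf2+/+ tumor lowest. In 9 more, among them Robo4, Eng, Plvap, Lyve1 and Vwf, the non-tumor pools changed places. In 5, which were Ednrb, Apln, Efnb2, Sox17 and Flt4, the Nrf2-/- tumor pool was lowest. The non-tumor pools lay within 2-fold of each other for 39 of 41 members and the tumor pools for all 41, so the order within a tissue rests on small differences.

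**Figure D2:**
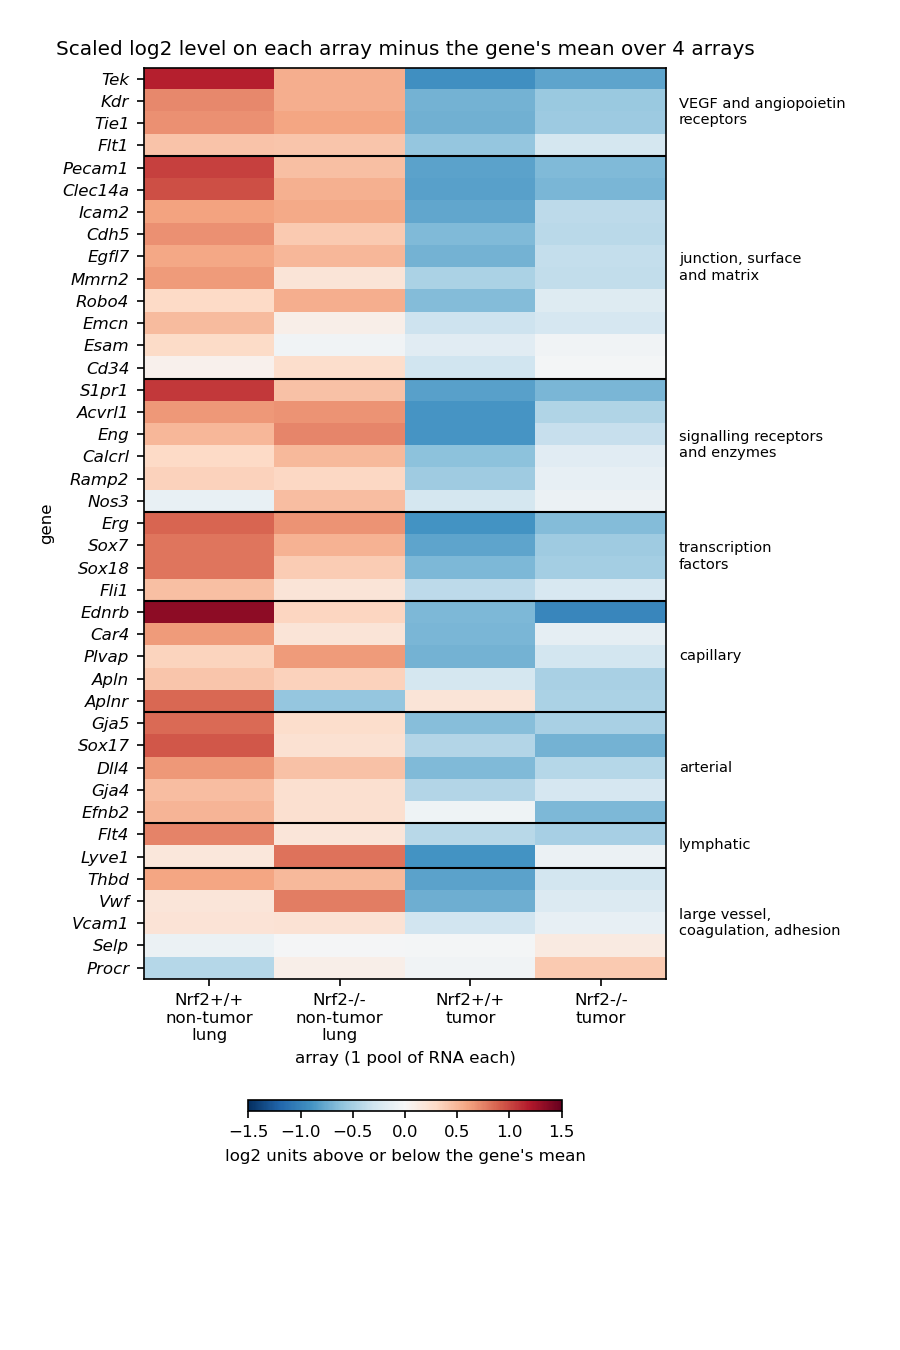
Scaled log2 level of each of the 41 vessel genes on each of the 4 arrays, minus that gene's mean over the arrays (red above, blue below the mean), grouped by role; each column is 1 pool of RNA. Non-tumor columns are red and tumor columns blue for most genes, and Aplnr, Selp, Procr, Nos3 and, slightly, Esam break the pattern.

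Genotype differences were small beside the tumor differences. In non-tumor lung 2 of 41 members were at least 2-fold lower in Nrf2-/- than in Nrf2+/+ mice, near the 4.63% of all genes. At least 2-fold higher were 0, against 3.1%. The 2 lower members were the capillary receptors Aplnr, 2.70-fold lower (-1.43), and Ednrb, 2.03-fold lower (-1.02). Other probes of these genes gave -1.02 for Aplnr, on a far dimmer probe, and -1.18 for Ednrb. The median over members was -0.20, beside 0.01 for all genes. Below 0 lay 29 of 41 members and 9862 of all 20553 genes. Under scaling on the array median only 22 of 41 members lay below 0, with Flt1, Tie1, Icam2, Egfl7, Ramp2, Apln and Thbd on the other side. Lower values in Nrf2-/- non-tumor lung were also read for Sox17 (-0.70), Tek (-0.63), S1pr1 (-0.61) and Gja5 (-0.58), and higher values for Lyve1 (0.64), Vwf (0.58), Nos3 (0.57) and Procr (0.52). Second probes gave 0.14 for Gja5 (the far dimmer probe), 0.12 for Lyve1 and, for Sox17, -1.14, past the 2-fold mark. A second Cdh5 probe gave -0.93 where the probe counted gave -0.29.

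In tumors no member passed 2-fold between genotypes, 0 lower against 3.76% of all genes and 0 higher against 4.5%. Here 35 of 41 members lay above 0 in Nrf2-/- relative to Nrf2+/+ tumor, as did 9957 of all 20553 genes. The median over members was 0.17, beside -0.01 for all genes. Lyve1 was highest at 0.81, followed by Car4 (0.55), Eng (0.54), Thbd (0.53) and Vwf (0.52). The 6 members below 0 were Aplnr (-0.67), Efnb2 (-0.61), Ednrb (-0.31), Sox17 (-0.28), Apln (-0.22) and Flt4 (-0.08). Flt4 lay within its software error of 0.25, and a second Apln probe gave -0.05. These are capillary, arterial or lymphatic members, but Car4, Plvap, Dll4, Gja4, Gja5 and Lyve1 of the same groups lay above 0. The medians of the capillary, arterial and lymphatic groups were -0.22, 0.15 and 0.37. All 6 members below 0 in tumors also lay below 0 in non-tumor lung, Apln by only -0.07. The 12 members above 0 in non-tumor lung, Lyve1, Vwf and Procr among them, were also above 0 in tumors.

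**Figure D3:**
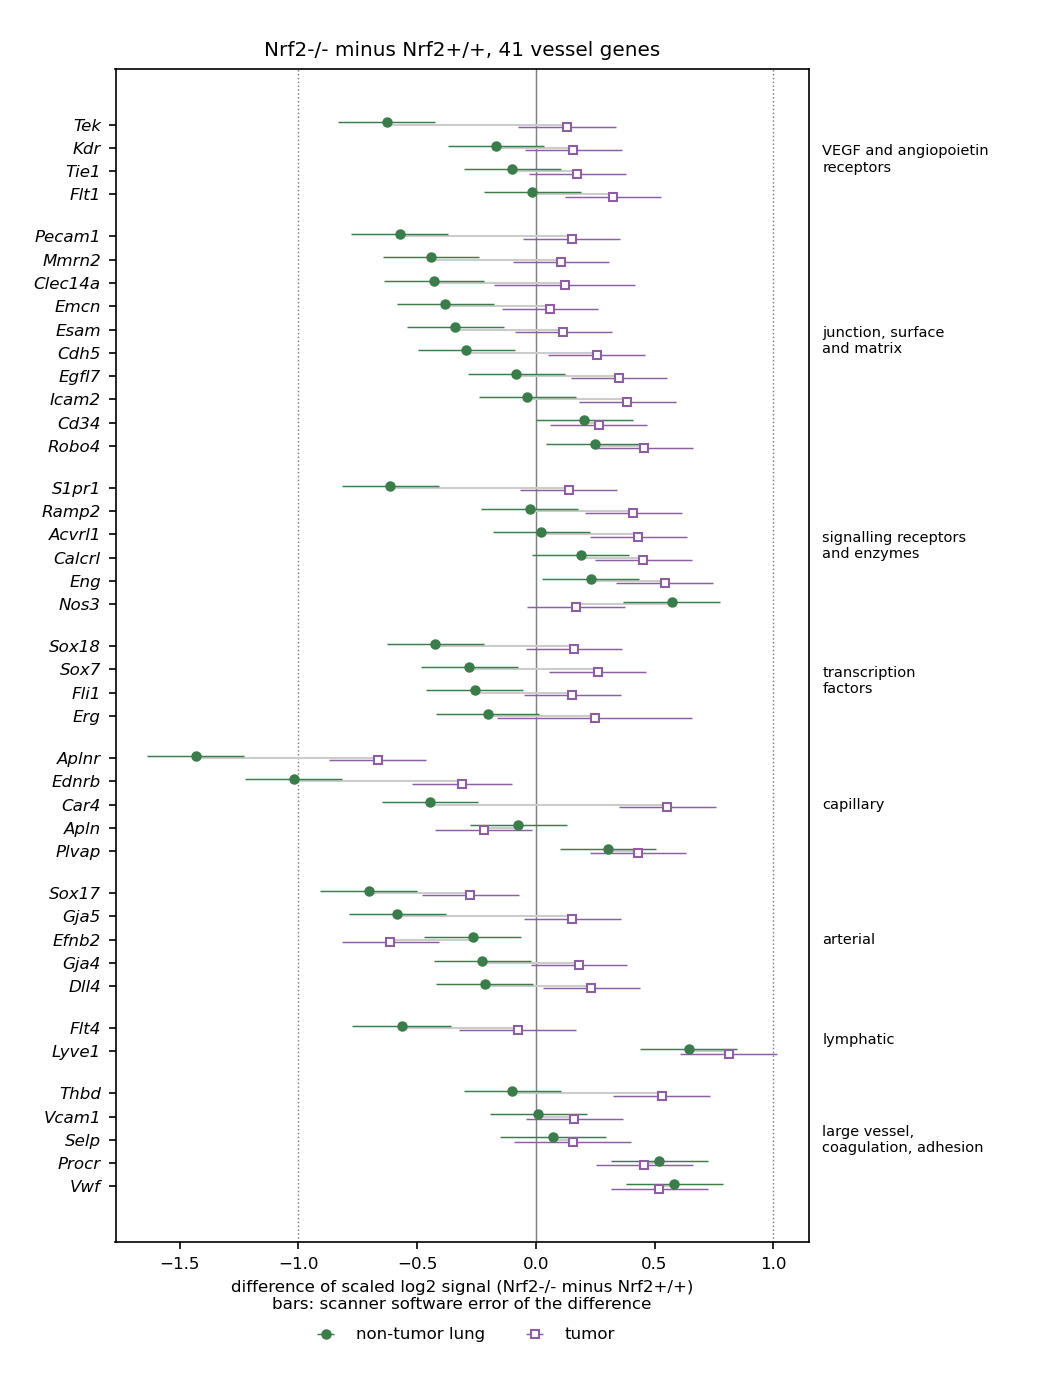
Difference in scaled log2 signal between Nrf2-/- and Nrf2+/+ mice for the 41 vessel genes in non-tumor lung (filled circles) and in tumors (open squares), with the scanner software's error and dotted lines at 2-fold. Aplnr and Ednrb pass the 2-fold line in non-tumor lung, a count near the share of all genes. None of the 41 genes passes it in tumors, and 35 of the 41 squares lie right of 0, beside 9957 of all 20553 genes.

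The Nrf2+/+ tumor difference was also subtracted from the Nrf2-/- one. This double difference was above 0 for 36 of 41 members and for 9738 of all 20553 genes. Its median was 0.43 over members, beside -0.03 for all genes. No member passed 2-fold in this double difference, 0 lower against 3.98% of all genes and 0 higher against 6.81%; Car4 came closest at 1.00, just under the mark, and a second Cdh5 probe passed it at 1.26, where the probe counted gave 0.55. The 5 members on the other side of 0 were Nos3 (-0.40), Efnb2 (-0.35), Apln (-0.14), Vwf and Procr (both -0.06). Scaling on the array median gave a median of 0.27, with 32 of 41 above 0. With 1 array per group the double difference has no test, and it draws on the single array of slide 1.

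The fit that holds both tissue and genotype and still leaves a residual degree of freedom was an additive limma model, in which the 2 genotypes stand in for replicates of the tumor difference. At a Benjamini-Hochberg adjusted p under 0.05 it called 0% of the 20553 genes, lower or higher, for either term, and 0 of 41 members. The members' adjusted p-values from limma ran from 0.0717 to 0.673 for the tumor term and from 0.428 to 0.994 for the genotype term. At an unadjusted p under 0.05 the tumor term took in 32 of 41 members, against 29.7% of all genes, and the genotype term 4 of 41, against 9.29%. The adjusted calls depend on the settings: 30 members were called when normexp background correction was used or when genes were limited to those well above background on all 4 arrays, with 15.2% and 23.7% of genes called, and 0 under quantile normalization.

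The lists of related genes that follow are to be set beside all genes: 15.2% were at least 2-fold lower and 8.06% higher in Nrf2+/+ tumor, and 9.06% lower and 5.36% higher in Nrf2-/- tumor. Several ligands of the same receptors were lower in tumor. Among 10 VEGF and angiopoietin ligands and co-receptors, 5 were at least 2-fold lower in Nrf2+/+ tumor and 3 in Nrf2-/- tumor, with 0 higher, and medians of -0.89 and -0.73. Vegfa, which the lung makes chiefly in alveolar epithelium, read 22576 and 23039 units in Nrf2+/+ and Nrf2-/- non-tumor lung and 7342 and 11807 units in tumors, differences of -1.17 and -0.62. The lymphatic ligands Vegfc (-1.61 and -0.88) and Vegfd (-1.45 and -1.06) and the Tek agonist Angpt1 (-1.94 and -1.42) were lower still. Angpt2, the context-dependent Tek ligand of remodelling vessels, differed by -0.62 and -0.83, and the phosphatase Ptprb, which dampens Tek, by -1.40 and -1.01.

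Other signalling lists were mixed. Of 12 Notch pathway genes 4 were at least 2-fold lower in Nrf2+/+ and 2 in Nrf2-/- tumor, with 0 higher; the receptor Notch4 differed by -1.12 and -0.96 and the target Hey1 by -1.54 and -1.04. In the BMP and TGF-beta list of 14 genes, 4 were at least 2-fold lower in each genotype, and 4 in Nrf2+/+ and 2 in Nrf2-/- were higher. The ligand Bmp6 (-2.26 and -1.45), the inhibitory Smad6 (-2.07 and -1.47) and the receptor Bmpr2 (-1.60 and -0.93) stood at its low end. Of 11 partners of the apelin, adrenomedullin, endothelin and S1P receptors, 5 were lower in Nrf2+/+ and 1 in Nrf2-/- tumor, the latter, a share near that of all genes, being the endothelin gene Edn1 (-1.74 and -1.41). The 14 genes of sprouting tip cells had medians of -0.22 and -0.16, with 1 gene past 2-fold in Nrf2+/+ mice (Adm, -1.18) and none in Nrf2-/- mice; scaling on the array median turned the first median to 0.08. Esm1, a tip cell proteoglycan, differed by 0.13 and -0.25.

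Endothelial genes outside the member list gave similar values, though these lists were chosen with earlier results of these data known. Some genes, such as Ptprb and Hey1, stand in more than 1 of the lists. Of 24 other endothelial genes 18 were at least 2-fold lower in Nrf2+/+ and 8 in Nrf2-/- tumor and 1 was higher in each, with medians of -1.24 and -0.84. Cldn5, the endothelial claudin, differed by -1.65 and -1.03, Tmem100, a target of Acvrl1, by -2.44 and -1.43, and the prostaglandin dehydrogenase Hpgd by -2.33 and -1.55. Of 18 other transcription factors 11 were lower in Nrf2+/+ and 4 in Nrf2-/- tumor and 1 was higher in each; Foxf1, needed for lung capillaries, differed by -2.34 and -1.27 and Gata2 by -1.94 and -1.24. The 12 lung capillary genes had the lowest medians of these lists, -1.67 and -1.03, with 11 and 6 past 2-fold. Of 15 arterial and venous genes 9 and 5 were lower and 2 and 0 higher, and of 13 lymphatic genes 5 and 1 were lower and 1 and 0 higher, the counts of 1 being near the shares of all genes. Pdpn, shared by lymphatic endothelium and alveolar type 1 cells, differed by -1.39 in Nrf2+/+ and -0.29 in Nrf2-/- mice.

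**Figure D4:**
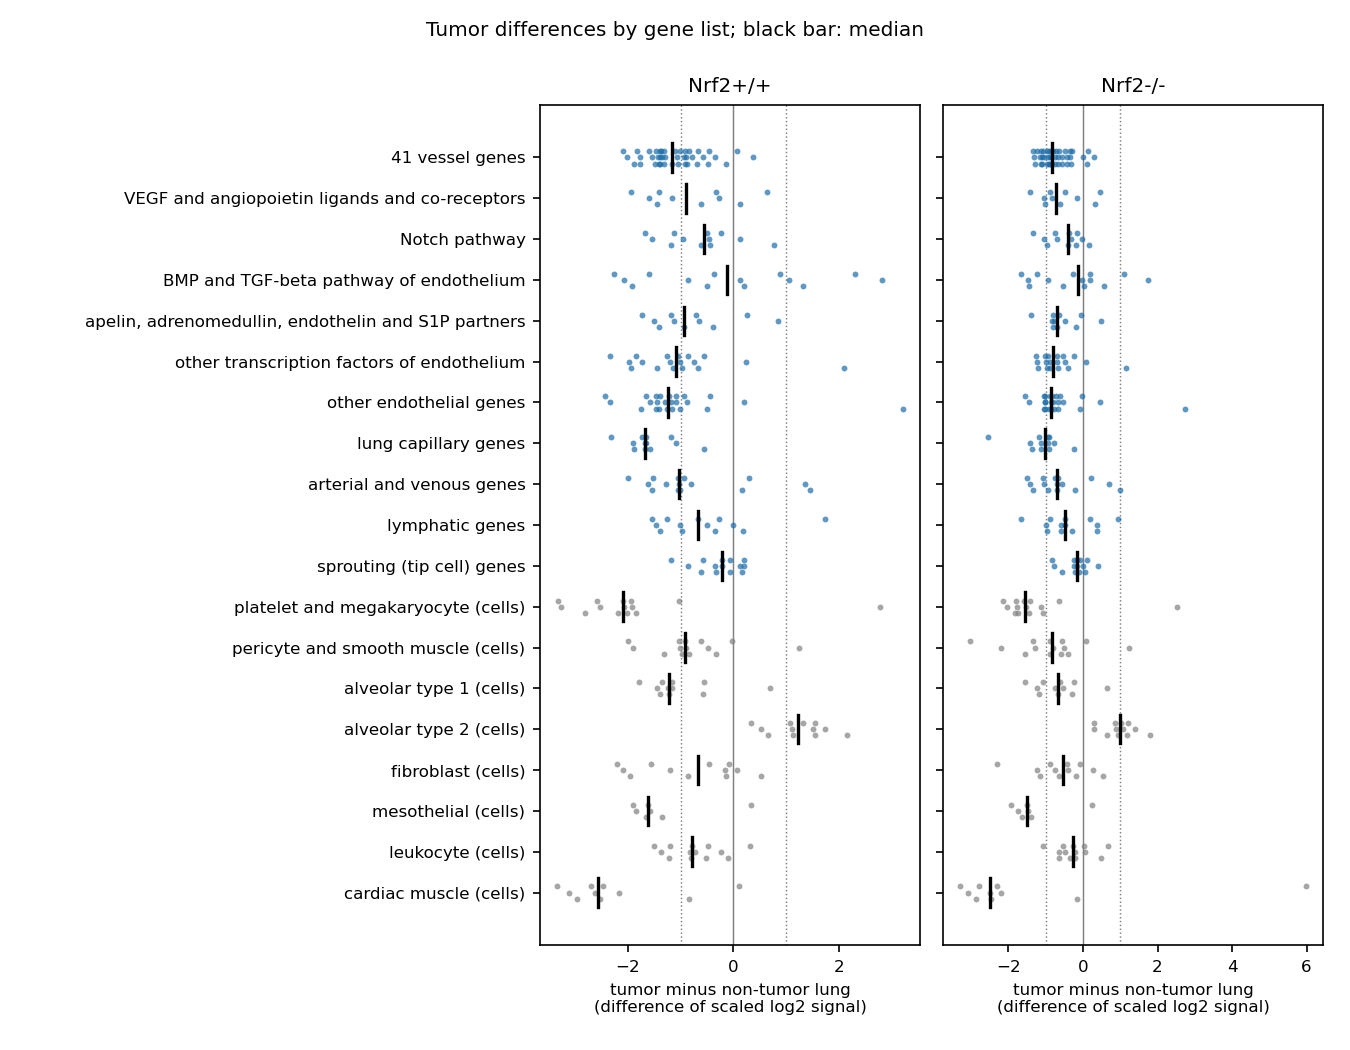
Tumor minus non-tumor difference in scaled log2 signal for each measured gene (points) of the 41 vessel genes, of related endothelial lists (blue) and of lists for other cell types (grey), in Nrf2+/+ and Nrf2-/- mice; black bars are medians and dotted lines mark 2-fold. Medians of the endothelial lists lie below 0, the lung capillary list lowest at -1.67 and -1.03, and among the other cells alveolar type 2 genes lie above 0 (1.23 and 0.98).

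Markers of other cells moved with the same contrast. Alveolar type 2 genes were higher in tumor, with medians of 1.23 and 0.98 and 9 and 6 of 12 past 2-fold; their summed scaled signal was 718 and 845 in Nrf2+/+ and Nrf2-/- non-tumor lung and 1348 and 1401 in the tumors, in units of each array's 75th percentile. The summed signal of the 41 vessel genes on the same scale was 749 and 771 in non-tumor lung and 350 and 450 in tumors. Such sums weigh bright genes most and need not follow a list's median. The vessel sum was higher in Nrf2-/- than in Nrf2+/+ non-tumor lung although most members were lower there. Bright Vwf read 60716 units in Nrf2+/+ and 88865 in Nrf2-/- non-tumor lung. Alveolar type 1 genes had medians of -1.21 and -0.67, with 8 and 4 of 11 past 2-fold lower, and sums of 402 and 369 against 221 and 265. Of these, Cav1, Emp2, Vegfa and Pdpn were also counted in the related endothelial lists above, so the lists are not separate. Cav1 and Emp2 were bright, at 75121 and 39276 units in Nrf2+/+ non-tumor lung, and weigh on the sums. Pericyte and smooth muscle genes had medians of -0.91 and -0.84, with 5 of 14 past 2-fold lower and 1 higher in each genotype. Fibroblast genes had medians of -0.66 and -0.53, with 5 and 3 of 12 lower. Mesothelial genes had medians of -1.62 and -1.51, with 6 of 7 lower in each. Cardiac muscle genes had medians of -2.57 and -2.49, with 8 of 10 lower in each and 1 higher in Nrf2-/- tumor. Of 13 leukocyte genes 4 were at least 2-fold lower in Nrf2+/+ tumor (median -0.78) and 1 in Nrf2-/- tumor (median -0.27), the latter near the share of all genes, with 9 below 0. Their summed scaled signals in Nrf2+/+ and Nrf2-/- non-tumor lung and Nrf2+/+ and Nrf2-/- tumor were 133, 124, 74.7 and 58.8 for pericytes and smooth muscle, 475, 505, 270.0 and 358 for fibroblasts and 87.2, 78.6, 55.7 and 67.2 for leukocytes. They were 35.6, 53.5, 29.9 and 39.2 for mesothelium and 44.0, 54.0, 15.2 and 18.3 for cardiac muscle. Whether these marker differences reflect a shift in cell makeup was not tested. Nor was the part of such a shift in the vessel gene differences. Members known mainly from endothelium, 28 of the 41, gave medians of -1.23 and -0.81, with 18 and 7 past 2-fold.

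Platelet and megakaryocyte genes, some of them shared with endothelium, differed by genotype as well as by tissue. Of 14 measured, 12 were at least 2-fold lower in Nrf2-/- than in Nrf2+/+ non-tumor lung (median -1.75), against 4.63% of all genes. Between the tumor pools 8 were (median -1.06), against 3.76%. In tumors relative to non-tumor lung their medians were -2.08 in Nrf2+/+ and -1.55 in Nrf2-/- mice. The platelet receptor subunit Gp9 read 3570 and 1122 units in Nrf2+/+ and Nrf2-/- non-tumor lung and 454 and 255 units in tumors. Pf4, a platelet chemokine, ran the other way by tissue, at 9322 and 5439 units in non-tumor lung and 46850 and 24469 units in tumors, and dominates the list's summed scaled signal in tumors (55.3 and 21.2 in non-tumor lung, 95.6 and 47.9 in tumors). The members also made by platelets did not follow this genotype difference together: Pecam1 was -0.57 in Nrf2-/- non-tumor lung, Selp 0.07 and Vwf 0.58. The part of platelet RNA in the genotype difference of Pecam1 was not tested. Mesothelial genes differed by genotype in the other direction, with a median of 1.23 in non-tumor lung and 1.17 in tumors. Of 7 such genes 4 and 5 were at least 2-fold higher in Nrf2-/- mice, against 3.1% and 4.5% of all genes.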

How the data were processed

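RNA was pooled over 8 mice per group, and 500 ng per array was Cy3-labelled, per the labels' protocols. The deposited files give linear spot intensity from Agilent Feature Extraction 10.7.3.1, per the file headers: processed signals with background subtracted and detrended, with an error and background flags for each spot. The deposited value table equalled these signals within 0.5%, so it was neither logged nor centred; its medians were 79.2, 70.0, 47.2 and 50.1 in Nrf2+/+ and Nrf2-/- non-tumor lung and Nrf2+/+ and Nrf2-/- tumor. No normalization between arrays is given in the sources used here. Between 54.2% and 63.5% of spots were well above background and none was saturated.

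From these, log2 signals were scaled on each array's 75th percentile; 4 non-uniform probes of 41174 were left out. Spots of a probe were averaged (245 probes had 10 spots, with a median SD of 0.085 to 0.100). Names came from RefSeq accessions (assembly GRCm38.p6), which matched 26678 probes; 14492 had none. The array design was annotated on mm9, so no coordinate was taken from it. A gene with several probes (6829 of 32300) was represented by its brightest probe. Of 13 members with another probe well above background, 7 such probes lay within 0.5 of the first in Nrf2+/+ and 12 in Nrf2-/- mice, and the largest gap was 0.88.

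Differences were counted at 2-fold among the 20553 genes well above background on at least 1 array. The additive fit used limma 3.58.1 in R 4.3.3 (1 residual and 2.18 prior degrees of freedom), and was tested on simulated data. Other steps used Python 3.11.15, numpy 2.4.6, pandas 2.3.3 and matplotlib 3.10.9. Alternatives were scaling on the median or on 7 spike-in probes, quantile normalization, normexp background correction (offset 50, on median signals), averaging all probes, and stricter or no filters. All members with a probe could be named. From each other list the genes named were among up to 4 with the largest mean tumor difference, if above background throughout, plus Vegfa, Angpt2, Esm1, Cldn5, Pdpn and Pf4. Cav1 and Emp2 were named only as genes shared between lists. Members and lists were chosen with earlier results of these data known.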

Additional observations from a re-analysis of the deposited data

Results flagged for a closer look

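Car4, the carbonic anhydrase of lung capillary aerocytes, was the 1 member whose genotype difference took opposite signs in the tissues each by more than 2 times its software error of 0.20. Nrf2-/- minus Nrf2+/+ was -0.45 in non-tumor lung and 0.55 in tumor on the scaled log2 scale. With arrays scaled on their median the non-tumor value was -0.30, which is under 2 times its error. With 1 array per group the difference between the tissues was not tested.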

How the results depend on the processing

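Every alternative kept the members' median tumor difference below 0 in both genotypes. The count at least 2-fold lower in Nrf2+/+ tumor ran from 19 with median scaling to 31 with spike-in scaling, beside 10.67% and 19.42% of all genes, and the differences that moved were these. Scaling on the array median gave a median of -0.87 in Nrf2+/+ tumor, 5 members lower in Nrf2-/- tumor (7.19% of all genes) and 1 lower in Nrf2-/- non-tumor lung (3.73%). Scaling on spike-in probes gave a median of -1.11 and 25 members lower in Nrf2-/- tumor (14.1% of all genes). Normexp background correction left 1 member lower in Nrf2-/- non-tumor lung (1.23% of all genes). Averaging all probes put 1 member past 2-fold lower in Nrf2-/- relative to Nrf2+/+ tumor (3.75% of all genes), and quantile normalization and normexp each put 1 past 2-fold higher in the double difference (5.52% and 1.75%). In the additive limma fit the tumor term called 10 members with median scaling (10.5% of all genes), 27 with spike-in scaling (14.0%), 30 with normexp (15.2%) and 30 (23.7%) among genes well above background on all 4 arrays. The genotype term called 0 under each alternative. The cause of these moves was not tested. Scaling shifted the median of all genes by 0.29 (array median) and -0.20 (spike-ins) in the Nrf2+/+ tumor difference and by 0.14 and -0.28 in the Nrf2-/- one. Relative to all genes the members' medians were -1.13 and -0.80, which such scaling cannot change since it moves every gene alike. No paired analysis was possible because each group has a single array. A fit with slide as a term was not run, since it would leave nothing to estimate the error from; the differences within slide 2 are those of Nrf2-/- tumor against non-tumor lung and of genotype in tumors.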

Other observations

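Within the endothelial lists a few genes stood against the direction of the rest. Rgs5, a G protein signalling regulator known from pericytes as well as endothelium, read 158 and 213 units in Nrf2+/+ and Nrf2-/- non-tumor lung and 1066 and 1116 units in the tumors, differences of 3.21 and 2.74. Id2, a BMP target and inhibitor of helix-loop-helix factors, differed by 2.29 and 1.74, and the transcription factor Hhex by 2.09 and 1.16. Itga9, an integrin of lymphatic valves, differed by 1.75 and 0.95. None of these genes is confined to endothelium, and which cells carried the signal was not tested.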
